A study of Saccharomyces cerevisiae with 8 samples.

Results

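Tandem intervals are the stretches between 2 neighbouring protein-coding genes that are read in the same direction, so that each holds the end of 1 gene and the start of the next. The regions described here are the ATAC-seq peaks of the yeast nuclear genome whose summit lay in such an interval, outside every protein-coding gene of the sacCer3 (R64) annotation, more than 300 bp from a tRNA gene and more than 20 kb from a chromosome end. Membership was fixed by position alone, and 2310 of 8559 nuclear peaks over 8 peak lists met it, in 588 of 2719 eligible tandem intervals. Of 2954 summits between genes on the same strand, 499 were left out for the tRNA limit and 145 for the chromosome ends. The member nearest the tRNA limit lay 403 bp from a tRNA gene, in YER076C–PTP3 (fold enrichment 4.02), and the nearest summit left out lay at 291 bp, in DFP3–YCR006C (3.40). At the chromosome ends the values on each side of the limit were 20036 bp (2.77) and 19960 bp (2.47), both in YMR315W-A–DIA1.

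ATAC-seq inserts sequencing adapters into DNA that nucleosomes leave exposed, and a peak summit marks where the fragments piled up highest. The strains derived from BY4741 (his3Δ1 leu2Δ0 met15Δ0 ura3Δ0) and carried the synthetic human locus HPRT1 or its reversed, non-complemented copy HPRT1R. In 4 libraries the locus was an episome on a centromeric LEU2 assembly vector, in cultures grown in SC-Leu, and in 4 libraries Cre, expressed from a galactose-inducible promoter, had moved it into a URA3 landing pad on chromosome XI at YKL162C-A, in cultures grown in YPD. The 2 libraries of a strain came from independent clones, and cultures started at an OD600 of 0.1 were collected near 0.6, after 6 h at 30 °C. Context and medium changed together in every comparison of the 2 contexts and cannot be told apart.

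In budding yeast a promoter usually holds a nucleosome-depleted region just upstream of the first nucleosome of the gene. General regulatory factors such as Reb1, Abf1 and Rap1, and stiff runs of A or T, help to keep this region open. In a tandem interval the depleted region serves 1 gene, whereas the interval between divergent genes can hold the promoters of both. In bulk cultures, a region open in more cells and a region open more fully in each cell cannot be told apart.

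The windows below show the sequence at summits on which the results turn, each running 100 bp to both sides of the median summit and written 5′ to 3′ on the strand of the downstream gene, from the RefSeq R64 assembly. Capitals mark matches to the Reb1 motif TTACCCG, to the Abf1 motif (TCA and ACG with 6 unspecified bases between) and to the Rap1 motif (ACCC and ACA with 2 unspecified bases between), on either strand. Windows with no capitals hold none of the 3, and overlapping matches to other motifs are not marked. DUG3–YNL190W had the tightest summits of the highest intervals, LOT5–FAS1 lay nearest the integration site among the intervals with a member in every library, and BDF1, RPL12A, RPL33A, TDH3, ADH1 and GLN1 are the genes downstream of other high intervals with a match. The BDF1 match lies at the end of its window, centred 94.5 bp downstream of the median summit, and reaches into the coding sequence.
DUG3–YNL190W, chrXIV:281680-281880, plus strand: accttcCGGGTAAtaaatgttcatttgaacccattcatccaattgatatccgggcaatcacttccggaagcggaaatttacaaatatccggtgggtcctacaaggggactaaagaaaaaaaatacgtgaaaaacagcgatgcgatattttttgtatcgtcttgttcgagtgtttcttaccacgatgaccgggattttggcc
LOT5–FAS1, chrXI:99763-99963, plus strand: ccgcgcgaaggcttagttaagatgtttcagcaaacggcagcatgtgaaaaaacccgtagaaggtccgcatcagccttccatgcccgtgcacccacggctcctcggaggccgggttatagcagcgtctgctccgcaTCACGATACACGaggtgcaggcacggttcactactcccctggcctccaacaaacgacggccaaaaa
DUS3–BDF1, chrXII:921593-921793, minus strand: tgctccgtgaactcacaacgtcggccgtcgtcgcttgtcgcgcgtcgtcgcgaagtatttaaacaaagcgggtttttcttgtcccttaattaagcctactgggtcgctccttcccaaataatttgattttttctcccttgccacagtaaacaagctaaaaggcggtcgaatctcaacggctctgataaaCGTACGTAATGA
MAK10–RPL12A, chrV:53542-53742, minus strand: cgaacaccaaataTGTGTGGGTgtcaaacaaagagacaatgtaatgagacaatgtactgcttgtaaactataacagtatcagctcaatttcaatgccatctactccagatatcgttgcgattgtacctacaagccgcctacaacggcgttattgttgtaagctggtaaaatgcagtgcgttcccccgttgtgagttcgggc
POC4–RPL33A, chrXVI:281698-281898, plus strand: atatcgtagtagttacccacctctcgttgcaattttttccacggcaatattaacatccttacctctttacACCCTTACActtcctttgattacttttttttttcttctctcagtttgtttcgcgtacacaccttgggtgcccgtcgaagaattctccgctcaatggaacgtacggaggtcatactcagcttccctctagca
PDX1–TDH3, chrVII:884183-884383, minus strand: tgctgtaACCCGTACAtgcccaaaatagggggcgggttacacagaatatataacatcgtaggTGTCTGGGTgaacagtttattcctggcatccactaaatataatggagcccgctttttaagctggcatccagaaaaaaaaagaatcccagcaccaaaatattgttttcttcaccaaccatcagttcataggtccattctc
YOL085C–ADH1, chrXV:161147-161347, minus strand: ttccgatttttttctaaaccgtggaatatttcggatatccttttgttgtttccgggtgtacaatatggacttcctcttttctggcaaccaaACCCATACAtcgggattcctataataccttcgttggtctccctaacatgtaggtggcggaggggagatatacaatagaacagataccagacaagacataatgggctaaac
ARP7–GLN1, chrXVI:641398-641598, plus strand: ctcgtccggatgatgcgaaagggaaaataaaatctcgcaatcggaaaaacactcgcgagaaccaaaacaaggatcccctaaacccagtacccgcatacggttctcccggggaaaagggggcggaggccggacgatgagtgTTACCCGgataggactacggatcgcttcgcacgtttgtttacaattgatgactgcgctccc

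The next windows show 2 intervals with none of those motifs, the long interval upstream of CUP9 and the interval upstream of GSY1, where the contexts lay furthest apart, and the GAL2 window, where only the integrated libraries had a peak. In the GAL2 window the capitals mark the Gal4 motif (CGG and CCG with 11 unspecified bases between), which was searched for in this window after its values were seen.
TRE1–CUP9, chrXVI:214868-215068, minus strand: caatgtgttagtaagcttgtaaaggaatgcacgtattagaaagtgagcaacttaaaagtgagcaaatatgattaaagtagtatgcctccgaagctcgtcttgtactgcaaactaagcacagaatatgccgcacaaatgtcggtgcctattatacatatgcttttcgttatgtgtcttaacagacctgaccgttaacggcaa
AIP5–GSY1, chrVI:176701-176901, minus strand: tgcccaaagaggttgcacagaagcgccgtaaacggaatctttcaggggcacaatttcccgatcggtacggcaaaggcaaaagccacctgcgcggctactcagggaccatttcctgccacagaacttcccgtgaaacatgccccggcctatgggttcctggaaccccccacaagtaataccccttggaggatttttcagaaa
EMP46–GAL2, chrXII:289687-289887, plus strand: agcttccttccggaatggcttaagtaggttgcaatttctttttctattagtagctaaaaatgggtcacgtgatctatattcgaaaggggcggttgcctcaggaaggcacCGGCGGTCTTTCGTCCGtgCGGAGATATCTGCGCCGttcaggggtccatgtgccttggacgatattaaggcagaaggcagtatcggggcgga

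Members numbered 267 and 243 in the libraries with the HPRT1 episome and 284 and 273 in those with the HPRT1R episome. Integrated HPRT1 gave 282 and 268, and integrated HPRT1R 364 and 329, the 2 highest counts. They made up 26.9 ± 1.16% of a library's nuclear peaks (SD, n = 8), with a range of 24.6 to 28.3%. The lists held 1029 to 1337 peaks. The methods give only an approximate read number shared by all libraries, and the lists hold no exact totals. The fold enrichments and p-values of 99.3 to 99.6% of peaks gave back a whole fragment count at the summit. The median member rested on 22 to 25 fragments, against a lowest local background of 4.97 to 6.93, so that a member's own enrichment carries a wide counting error.

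The question of where tandem intervals stand among other parts of the genome was asked within each library, since classes then share depth and culture. Tandem intervals held 0.202 ± 0.027 summits per kb (SD, n = 8), divergent intervals 0.417 ± 0.041, convergent intervals 0.0400 ± 0.0055 and genes 0.0211 ± 0.0015. The log2 difference from divergent intervals was -1.05 ± 0.09, negative in 8 of 8 libraries. Tandem density was higher than in convergent intervals, which hold only gene ends, by 2.34 ± 0.19 on the log2 scale and higher than inside genes by 3.25 ± 0.13, also in 8 of 8 libraries. In the exact two-sided sign-flip permutation test over the 8 libraries each of these gave p = 0.0078, the smallest p that 8 libraries allow, and 0.0100 after Benjamini-Hochberg adjustment over 9 tests. The test takes the 8 clones as independent, and its p measures only the spread between them. Counted per coding start, with 1 start for a tandem and 2 for a divergent interval, tandem starts had 10.6 ± 1.43 summits per 100 and divergent starts 13.0 ± 1.29, which narrowed the log2 difference to -0.30 (adjusted p = 0.0100 in the same exact permutation test).

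**Figure D1:**
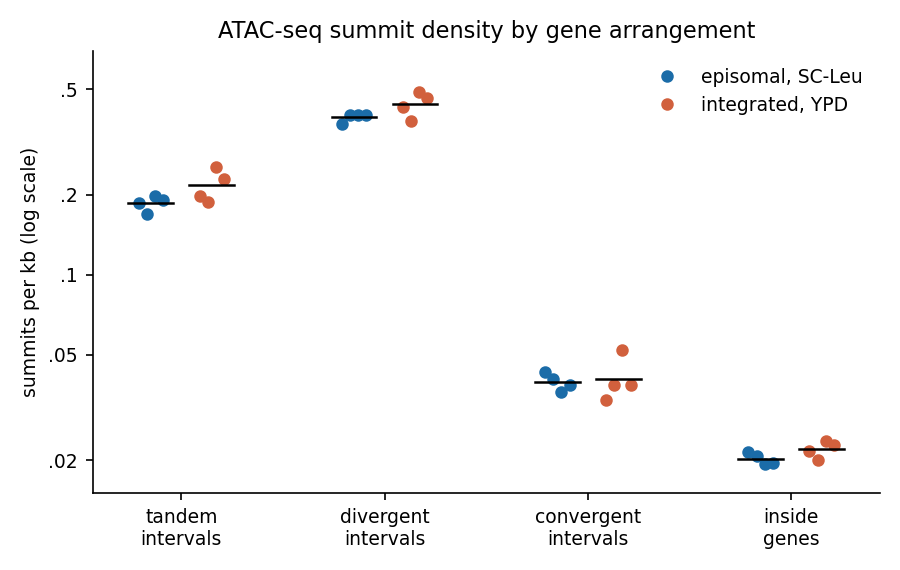
Summits per kb of eligible DNA (log axis) in tandem, divergent and convergent intervals and inside genes, with 1 point for each of the 4 episomal (blue) and 4 integrated (orange) libraries and a bar at the mean of each context. Every tandem point lies below every divergent point and above every convergent point and every point inside genes.

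Tandem peaks were also slightly weaker and narrower than divergent ones. The fold enrichment at the summit is the fragment count over the local background that the peak caller estimated. Its median over tandem members was 3.44 ± 0.22 (SD of 8 library medians, range 3.15 to 3.85), and 3.62 ± 0.21 over divergent peaks. The difference in the medians, -0.07 ± 0.03 on the log2 scale, was negative in 8 of 8 libraries (adjusted p = 0.0100, exact permutation test), and -0.039 with only the peaks of -log10 q of at least 5 (adjusted p = 0.0352, same exact test). The median width was 282 ± 14 bp, and 30 ± 18 bp less than in divergent intervals (adjusted p = 0.0100, same exact test). With those peaks only, the width difference was -16.7 bp (adjusted p = 0.10, same exact test), so that this call was lost. The enrichment stood above that of peaks inside genes by 0.05 on the log2 scale (adjusted p = 0.0313, exact permutation test), but at -log10 q of at least 5 it stood below by 0.08 (adjusted p = 0.0201), and no order of the 2 classes can be given. Against convergent peaks, 15 to 23 a library, the difference was 0.13 ± 0.12 (adjusted p = 0.0313, same exact test) and was lost without the tRNA and end limits or with 1 summit per interval. In the comparisons with genes and with convergent peaks 2 libraries had a difference of 0, and leaving out any of the other 6 gave an adjusted p of 0.0625 in the exact test.

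The summits sat well upstream of the coding start. The library medians of the distance from the downstream start ranged from -410 to -350.5 bp, with a mean of -380 ± 18 bp (SD, n = 8). Of a library's members 17.4 ± 1.69% lay within 200 bp of the start, 50.9 ± 1.61% from there to 500 bp, 25.8 ± 2.18% from there to 1000 bp and 5.94 ± 0.65% further away. Intervals on the plus strand had a median of -390 ± 17 bp and those on the minus strand -371 ± 20 bp. The summit was nearer the downstream start than the upstream gene's end in 43.9 ± 2.85% of members, under the 50% of evenly spread positions in 8 of 8 libraries (adjusted p = 0.0100, exact sign-flip permutation test). The upstream gene's end thus lay closer than the start for most members, with a median of 317 ± 21 bp to that end. The files give no transcript starts, so distances from transcription start sites were not measured. Measured to the nearest coding start, tandem summits lay 97 ± 18 bp further out than divergent summits (adjusted p = 0.0100, same exact test), and 129 bp further in intervals of over 500 and up to 1200 bp (adjusted p = 0.0137), a setting chosen after the data were seen. A divergent interval has a coding start at both ends and a tandem interval at only 1, so the arrangement itself favoured this direction. The test cannot separate that from where the summits were placed.

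**Figure D2:**
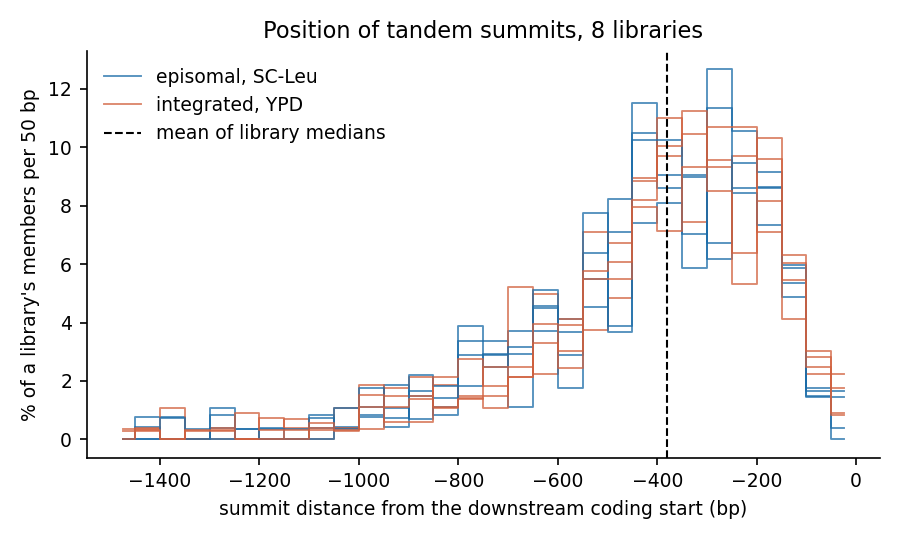
Percentage of each library's members per 50 bp of distance from the downstream coding start (negative values are upstream), with 1 line for each of 4 episomal (blue) and 4 integrated (orange) libraries. The lines overlap over the whole range, and the dashed line marks the mean of the library medians, -380 bp.

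Most tandem intervals gave no peak, and those that did were long. The median length was 575.5 bp for the 588 intervals with a member and 366 bp for the eligible intervals without one. A member was found in 10.3% of the 823 intervals of up to 300 bp, 16.1% of the 964 from there to 500 bp, 34.6% of the 503 from there to 800 bp, 39.8% of the 216 from there to 1200 bp and 41.3% of the 213 longer ones. These shares are a description: a longer interval also offers more bases for a summit. Per kb and library, the longest intervals held 0.171 members and those of 800 to 1200 bp 0.313.

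A member was present in all 8 libraries in 103 of the 588 intervals (17.5%), beside 20.3% of the 2002 nuclear genes and intervals with a peak in at least 1 library. Divergent intervals had 181 of 611 (29.6%), genes 46 of 447 (10.3%) and convergent intervals 3 of 34 (8.82%). A member in only 1 library was the most frequent outcome, in 190 intervals (32.3%). Intervals with a member in more libraries were longer, had higher enrichment and held summits further from the start. The median length went from 405.5 bp for 1 library to 951 bp for all 8, the median of the mean fold enrichment from 2.88 to 4.04 and the median distance from -213 to -471.5 bp. A more enriched peak passes the calling threshold in more libraries, and a longer interval lets its summit lie further from the start. These traits are thus not separate from the count or from each other. No interval of up to 300 bp had a member in all 8. The count of libraries depends on the calling threshold: at -log10 q of at least 5, 42 tandem intervals had a member in all 8. That count is not set beside all nuclear features at the same threshold.

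**Figure D3:**
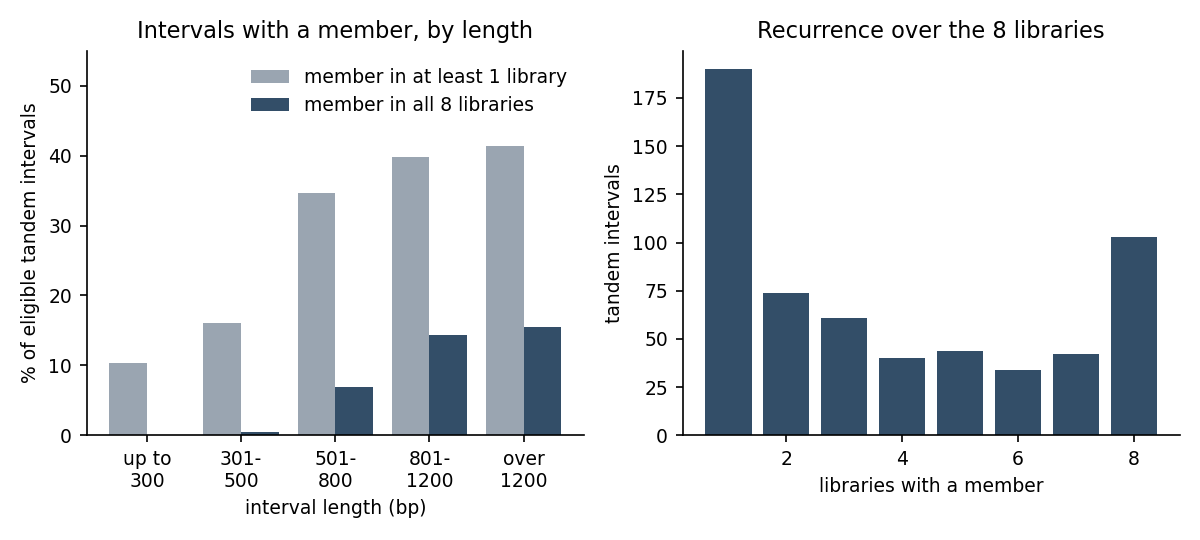
Left, percentage of eligible tandem intervals of each length class with a member in at least 1 library (grey) and in all 8 (dark). Right, number of tandem intervals with a member in 1 to 8 libraries. Recurrent intervals were long, with 0% of the shortest class and 15.5% of the longest in all 8 libraries, and the counts are highest at 1 library (190) and at 8 libraries (103).

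Within the 103 intervals the summit moved from library to library. The median range of the summit over the libraries was 238 bp, 9 intervals kept it within 100 bp and 5 spread over more than 1 kb. The upstream region of YNL190W, an uncharacterised gene on chromosome XIV (281506 to 282394), was the tightest of the 12 highest, with 8 summits within 2 bp, 614 to 616 bp upstream of the start. Only 33 of the 588 intervals had more than 1 member in a library, and 1 had this in all 8.

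Other annotated elements accounted for few members. Replication origins held the summits of 35 members (1.52%) and make up 2.28% of the tandem bases, and long terminal repeats held 1 member (0.0433%) in 2.44% of the bases. RNA genes annotated only as non-coding RNA held 28 members (1.21%) in 0.487% of the bases, and small nucleolar RNA genes 11 (0.476%) in 0.426%. The gene of the signal recognition particle RNA is annotated as a type of its own and was not counted. Ribosomal RNA held 24 members (1.04%), all in the interval YLR154C-H–YLR154C-G on chromosome XII. That interval, inside the ribosomal DNA, is the only one with more than 1 member in every library. Its fold enrichment of 1.496 to 1.78 was low, with 1584 to 2062 fragments at the summit over a local background of 915 to 1274.

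The 12 intervals with the best mean rank by enrichment included repeated DNA, a non-coding RNA gene and the upstream regions of protein-coding genes. The highest was YLR162W–RRT15 on chromosome XII (489930 to 490405). Within each context the 2 HPRT1 libraries are given before the 2 HPRT1R libraries here and below. Its fold enrichment was 18.1, 16.6, 16.2 and 18.2 in the episomal and 16.6, 16.1, 16.8 and 16.5 in the integrated libraries, with no separation of the contexts. It ranked 1 or 2 in every library, with 353 to 376 fragments over a local background of 18.5 to 22.4, far above the lowest background of any library. The second was upstream of CUP1-1, the copper-binding metallothionein gene of an amplified array on chromosome VIII (212721 to 213184), at 5.73 to 8.10 over the 8 libraries with a median of 6.37. Its median summit lay inside both an annotated origin of replication (212720 to 213185) and a non-coding RNA gene. The summit of the third, YER138C–YER137C on chromosome V (4.82 to 6.91), lay inside SCR1 (441987 to 442508), the RNA subunit of the signal recognition particle and a gene of RNA polymerase III. Reads from repeated copies can pile up on 1 reference copy, and how multiply mapped reads were assigned is not given in the sources used here.

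The other high intervals lay upstream of protein-coding genes with no annotated repeat in the interval. RPL36B–ATG41 (4.03 to 6.39, median 4.77) precedes ATG41, which acts in selective autophagy. LOT5–FAS1 on chromosome XI (99642 to 100670) precedes FAS1, a subunit of fatty acid synthase, and read 4.74, 4.41, 4.83 and 4.25 in the episomal and 4.86, 4.86, 5.14 and 5.89 in the integrated libraries, which did not overlap. It was the closest of the intervals with a member in every library to the integration site, 45.7 kb away. After centring on the library medians its limma difference was 0.03 ± 0.14 (SE, adjusted p = 0.975). TRE1–CUP9 (3.66 to 6.34) is 2049 bp long, precedes CUP9, a repressor of peptide import, and its summits had a median distance of -1006.5 bp. DUS3–BDF1 (3.53 to 6.65) precedes BDF1, a bromodomain protein that binds acetylated histone H4, and ECM38–EXG1 (3.91 to 5.45) precedes EXG1, a glucanase of the cell wall. The remaining 3 precede ribosomal protein genes.

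**Figure D4:**
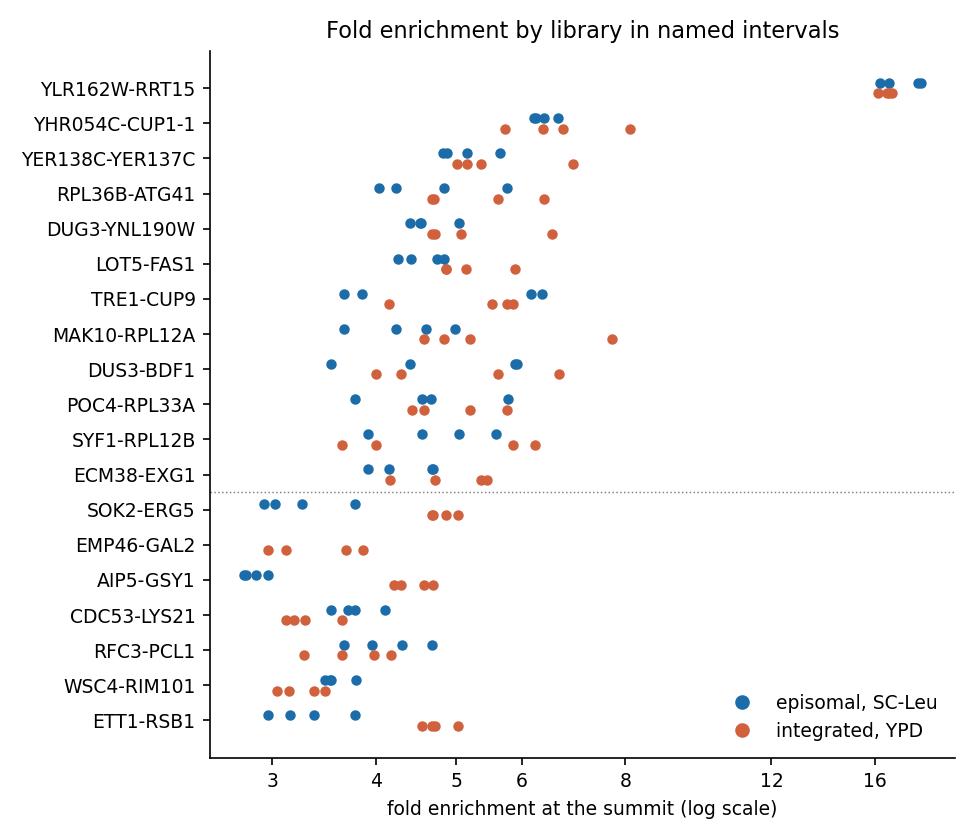
Fold enrichment at the summit (log axis) in the 12 tandem intervals with the best mean rank (above the dotted line) and in the intervals named for the comparison of contexts (below it), with 1 point for each episomal (blue) and integrated (orange) library. RRT15 stands apart at 16.1 to 18.2, the blue and orange points are well apart at GSY1, ERG5 and RSB1, and GAL2 has orange points only.

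Ribosomal protein genes were frequent behind tandem summits. Of 60 eligible tandem intervals upstream of a cytosolic ribosomal protein gene, 49 (81.7%) had a member in at least 1 library, beside 21.6% of all eligible tandem intervals, and 18 (30.0%) had one in all 8, beside 3.79%. The counts do not adjust for length. In intervals of over 500 bp, 16 of 34 (47.1%) ribosomal protein intervals and 99 of 932 (10.6%) of all tandem intervals had a member in all 8. The highest was MAK10–RPL12A on chromosome V (53219 to 53900), upstream of a gene for the stalk-base protein uL11. It read 4.59, 3.66, 4.22 and 4.98 in the episomal and 5.20, 4.57, 4.83 and 7.70 in the integrated libraries, so that 1 library stood above the rest. POC4–RPL33A ranged from 3.77 to 5.78, SYF1–RPL12B, upstream of the second copy of the uL11 gene, from 3.64 to 6.23, and SEC6–RPS24B from 3.86 to 5.88. The median summit of the 18 intervals lay at -424 to -166 bp from the start, beside a median of -471.5 bp over all 103.

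Glycolysis and fermentation genes, a smaller list, also had frequent members. Of 11 tandem intervals 9 (81.8%) had a member and 6 (54.5%) had one in all 8, upstream of ADH1, TDH3, HXK2, FBA1, PDC1 and TPI1, whose products act from glucose phosphorylation to ethanol. YOL085C–ADH1 on chromosome XV (160595 to 161672), upstream of the main fermentative alcohol dehydrogenase, ranged from 3.56 to 5.69 with a median of 4.35. PDX1–TDH3, upstream of a glyceraldehyde-3-phosphate dehydrogenase, ranged from 3.26 to 5.14, FZF1–HXK2, upstream of hexokinase 2, from 3.03 to 5.69, and MPE1–FBA1, upstream of aldolase, from 3.37 to 4.52. Cell wall mannoprotein genes had a member in 9 of 15 intervals and in all 8 libraries in 3, upstream of SED1 (3.03 to 5.46), CIS3 (2.995 to 5.08) and CWP1 (2.71 to 3.91).

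The other lists had from 0 to 2 intervals with a member in all 8 libraries, to be read beside the 3.79% of all eligible tandem intervals. Amino acid biosynthesis genes had a member in 21 of 49 intervals (42.9%) and in all 8 libraries in 2 (4.08%), upstream of GLN1, the glutamine synthetase gene (3.83 to 5.35), and LYS21, a homocitrate synthase gene. Translation elongation and initiation factors had 9 of 22 (40.9%) with 1 in all 8 (4.55%), upstream of TEF1, which encodes elongation factor 1A (3.25 to 5.02). Oxidative phosphorylation had 9 of 24 (37.5%) with 1 in all 8 (4.17%), upstream of NDE1, an NADH dehydrogenase of the outer face of the inner mitochondrial membrane (3.70 to 5.53). Proteasome subunits had 4 of 14 (28.6%), heat shock proteins and chaperones 7 of 25 (28.0%), mitochondrial ribosomal proteins 4 of 30 (13.3%) and ribosome biogenesis 3 of 65 (4.62%), each with 0 in all 8.

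The sequence at the summits was richer in G and C than the rest of the tandem intervals. Over the 100 bp on both sides of a summit the GC content was 43.4 ± 0.39% (SD, n = 8), against 35.3% in windows of the same length centred every 10 bp in all eligible tandem intervals and 39.4% in windows of the 103 recurrent intervals alone. The GC content was 39.3% for members of intervals seen in 1 or 2 libraries, 42.9% for those in 3 to 7 and 45.3% for those in all 8. GC content can also act on PCR and on insertion by the transposase, and its part in these values was not tested. The longest run of A or of T in a window averaged 6.52 ± 0.23 bp against 6.63 bp, and 24.8 ± 3.16% of summits had a run of at least 8 against 23.7% of windows, so that runs of A or T hardly set the summits apart.

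Motifs of the general regulatory factors were more frequent at summits. The Abf1 motif was present in 18.5 ± 1.13% of summit windows against 8.64% of all tandem windows, the Reb1 motif in 7.97 ± 1.22% against 3.65% and the Rap1 motif in 9.04 ± 0.77% against 2.07%. Against windows of the intervals with a member only, the shares to compare were 9.32% for Abf1, 3.42% for Reb1 and 3.45% for Rap1. Within the 103 recurrent intervals the Rap1 motif was present at 10.8% of summits and in 4.27% of windows, Abf1 at 18.0% and in 8.81%, and Reb1 at 7.56% and in 2.82%. The TATA box letters TATAAA went the other way, with 16.7 ± 1.77% against 35.2%, and in the recurrent intervals alone with 9.57% of summits against 22.7% of windows. Cbf1 (CACGTG) was found in 4.92% against 2.01%, Mbp1 and Swi6 (ACGCGT) in 5.06% against 2.18%, Gcn4 (TGACTCA) in 2.90% against 1.54% (in the recurrent intervals 0.779% against 1.25%, the other way round), the RRPE element (AAAAATTT) in 8.72% against 9.30% and the PAC element (GCGATGAG) in 0.417% against 1.22%. All were searched on both strands, and a match is a description of letters, not of binding. The windows compared were not matched for GC content, which was 43.4% at summits and 35.3% in all windows. How far base composition enters these motif shares, the TATA box included, was not tested. Libraries share most of their sites, so the SD over libraries is not an error over independent sites: the Reb1 matches near summits came from 69 distinct places, the Abf1 matches from 175 and the Rap1 matches from 65.

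Rap1 matches went with ribosomal protein genes. Of 268 members upstream of such a gene 35.1% had the Rap1 motif in the window, as in the RPL12A and RPL33A windows above, and of the 2042 other members 5.63% had it. The Abf1 motif was present in 4.85% of the former and 20.4% of the latter, and the Reb1 motif in 2.61% and 8.62%. Members of 1 interval in different libraries are not independent. Counted by interval, 8 of the 18 recurrent ribosomal protein intervals had the Rap1 motif, 1 the Abf1 motif and 0 the Reb1 motif. Rap1 is known to bind most ribosomal protein promoters and those of several glycolytic genes. Its motif also stood 34 and 89 bp upstream of the median TDH3 summit and 5 bp upstream of the median ADH1 summit. Over the libraries the summits spread over 266 bp at TDH3 and 320 bp at ADH1. The Rap1 motif was absent within 100 bp of the median summit upstream of HXK2, FBA1, PDC1 and TPI1, the rest of that list with a member in every library. Of the 103 recurrent intervals, 18 had the Abf1 motif within 100 bp of the median summit, 11 the Rap1 motif, 10 the Reb1 motif and 66 none of the 3.

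Summits lay more often 20 to 40 bp from a match than within 20 bp of it for several motifs. Of 189 pairs of a summit and a Reb1 match within 100 bp, 33 were up to 20 bp apart and 69 from there to 40 bp. Of 227 Rap1 pairs the counts were 36 and 91, of 225 RRPE pairs 43 and 64, and of 482 Abf1 pairs 130 and 116. Of 2065 pairs with a position in a run of A or T the counts were 318 and 587. A run longer than the minimum was counted at each of its overlapping positions, so long runs weigh more. These 2065 pairs are thus not pairs with separate runs. Pairs from different libraries at 1 match are not independent.

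**Figure D5:**
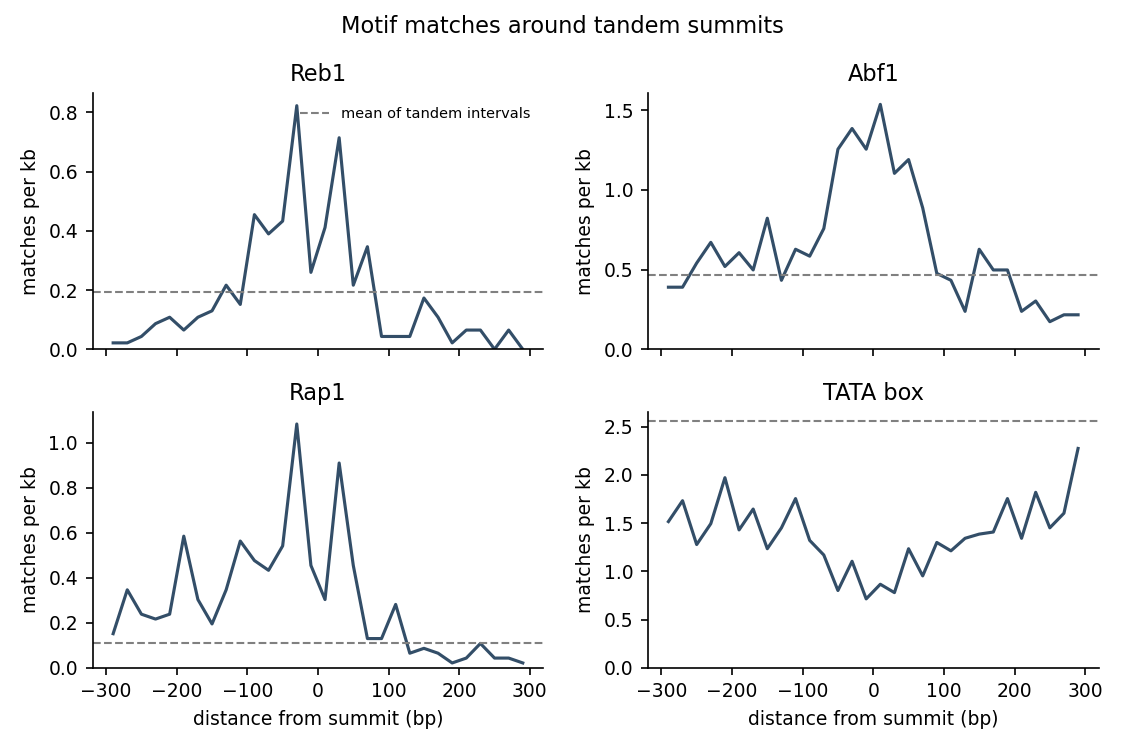
Matches per kb to the Reb1, Abf1, Rap1 and TATA box motifs by distance from the summit, in bins of 20 bp over all members, with positive distances towards the downstream gene; dashed lines give the mean over all tandem intervals. Reb1 and Rap1 peak in the bins centred 30 bp to both sides, Abf1 peaks across the summit, and the TATA box is lowest at the summit.

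The last question was whether tandem intervals differed between strains with an episome in SC-Leu and strains with an integrated locus in YPD. No difference was detected in any measure over all members. The share of nuclear peaks was 26.4 ± 1.23% in the episomal and 27.4 ± 0.96% in the integrated libraries (SD, n = 4 each), with p = 0.257 in the exact two-sided permutation test of the context labels and 0.381 adjusted over 4 tests. The median log2 fold enrichment was 1.74 ± 0.07 and 1.82 ± 0.10 (adjusted p = 0.381, same exact test), the median distance -388 ± 19 and -372 ± 15 bp (0.381) and the median width 284 ± 16 and 280 ± 14 bp (0.714). The smallest p that 4 against 4 libraries allow is 0.0286.

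For single intervals limma was fitted to the log2 fold enrichment of the 406 genes and intervals with a peak in all 8 libraries, with locus as covariate, after each library was centred on its median. Before centring, the integrated libraries stood 0.16 higher on the log2 scale over all 406 features, and the differences below are relative to that shift. None of the 103 tandem intervals passed a false discovery rate of 0.05 in either direction, as among all 406 features (0% called in each direction). At an unadjusted limma p under 0.05 there were 8 tandem intervals (7.77%), 4 in each direction, beside 7.14% of all features. The median difference over the 103 was 0.00 and the median SE 0.14, and differences of up to 0.48 did not pass.

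GSY1, which encodes a glycogen synthase, had the smallest p. The interval AIP5–GSY1 on chromosome VI (176392 to 177041) read 2.96, 2.77, 2.87 and 2.78 in the episomal and 4.29, 4.57, 4.21 and 4.69 in the integrated libraries. The 2 contexts did not overlap. The limma difference after centring was 0.48 ± 0.14 (SE), with the integrated libraries above and a limma adjusted p of 0.135, which did not pass. Centred values did not overlap between contexts in 6 of the 103 tandem intervals, beside 3.94% of all 406 features. SOK2–ERG5, upstream of a desaturase of ergosterol synthesis, read 2.93 to 3.77 in the episomal and 4.67 to 5.02 in the integrated libraries (0.42 ± 0.14, limma adjusted p = 0.288). ETT1–RSB1, upstream of a gene linked to the export of sphingoid bases, read 2.96 to 3.77 and 4.55 to 5.02 (0.36 ± 0.14, limma adjusted p = 0.442). In the other direction stood CDC53–LYS21, upstream of the first enzyme of lysine synthesis, at 3.53 to 4.10 and 3.11 to 3.64 (-0.35 ± 0.14, limma adjusted p = 0.476), WSC4–RIM101, upstream of a regulator of growth at alkaline pH, at 3.47 to 3.78 and 3.04 to 3.47 (-0.29 ± 0.14, 0.590), and RFC3–PCL1, upstream of a cyclin, at 3.66 to 4.68 and 3.27 to 4.17 (-0.30 ± 0.14, 0.590). In the fit to recovered fragment counts the RIM101 difference was -0.040 (limma adjusted p = 0.960). Without centring, LYS21, RIM101 and PCL1 stood at -0.19, -0.14 and -0.14, and the GSY1, ERG5 and RSB1 intervals passed, with limma adjusted p of 0.0065, 0.0257 and 0.0363. In that uncentred fit 6 of all 406 features passed, and its differences include the shift over all features.

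GAL2 was the only tandem interval with a peak in all 4 libraries of 1 context and none of the other. EMP46–GAL2 lies on chromosome XII (289251 to 290211) upstream of the galactose permease gene, which Gal4 activates on galactose. Its fold enrichment was 3.12 and 3.86 in the HPRT1 integrated and 2.96 and 3.68 in the HPRT1R integrated libraries, on 18 to 26 fragments, and no peak was listed in any episomal library. The 4 summits lay within 5 bp of each other, 424 to 429 bp upstream of the start, and the centres of the 2 Gal4 motifs capitalised in its window lay 17 and 36 bp downstream of the median summit. The motif was searched for after the values were seen. Its share in other windows was not measured, and a part of Gal4 in the peak was not tested. A peak in all 4 integrated and no episomal library was found for 4 of 2002 nuclear genes and intervals (0.2%), and the opposite pattern, which no tandem interval showed, for 2 (0.0999%). A library without a listed peak can still hold signal under the calling threshold, and the lists give no value there.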

How the data were processed

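Spheroplasts of the 8 yeast cultures were tagmented for 30 min and amplified over 11 PCR cycles. Per the submitters' notes and the study's methods, the authors trimmed reads with Trimmomatic, aligned them with bowtie2 2.2.9 and called peaks with MACS2 2.1.0, per library and with no control sample. Each deposited narrowPeak file gives the fold enrichment at the summit (a ratio to the local background), the p-value and q-value as −log10 and a display score, which was not used. Positions are sacCer3, and chromosome names and lengths fit the R64 reference used here.

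Summits (start plus summit offset) were placed against 6002 protein-coding genes. Members and gene lists were chosen with earlier results of these data known. Fragment counts were recovered from ratio and p-value. Single values per library were compared by exact permutation tests (SciPy 1.17.1) and intervals across the genome by limma 3.58.1, tested on simulated data, with Benjamini-Hochberg adjustment. Alternatives covered a −log10 q of at least 5, equal peak numbers, no exclusion zones, summit clusters (gaps of up to 200 bp), centring, covariates, windows of 50 bp and leaving out each library. Intervals were named where they had a member in all 8 lists and 1 of the 12 best mean ranks by fold enrichment, had the 3 smallest p in a direction, had peaks in 1 context only, preceded a listed gene (up to 4 a list) or lay nearest a limit or the integration site. Replicate numbers name independent clones and do not pair libraries.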

Additional observations from a re-analysis of the deposited data

Results flagged for a closer look

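Over 87 sets of 4 libraries of the same context, 6 held a library whose gap to the others exceeded Dixon's 95% critical value, and chance alone marks about 1 in 20 sets. The difference in median log2 fold enrichment between tandem and divergent peaks was -0.12 in the first HPRT1 episome library, against -0.06 to -0.05 in the other episomal libraries, and -0.11 in the first HPRT1 integrated library, against -0.06 in the other integrated ones. In the first HPRT1 integrated library the share of summits nearer the downstream start stood 2.84 percentage points under 50 (-2.84), against -8.21 to -7.45 in the other integrated libraries. RAD55–SED1 had a fold enrichment of 3.72 in the second HPRT1 integrated library, against 5.19 to 5.46 in the other integrated libraries. MPE1–FBA1 had 3.51 in the first HPRT1 integrated library, against 4.43 to 4.52. CWP2–CWP1 had 2.71 in the first HPRT1R episome library, against 3.37 to 3.47 in the other episomal libraries. An interaction of locus and context was fitted for all 406 features by limma, and 0 features passed a false discovery rate of 0.05. The smallest limma adjusted p among the 103 tandem intervals was 0.912.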

How the results depend on the processing

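Of the alternatives tried, the density, distance and position results against divergent and convergent intervals and genes kept their direction and their call in all. With peaks of −log10 q of at least 5, the enrichment was -0.084 against genes and -0.039 against divergent peaks (adjusted p = 0.0352, exact permutation test), the width against divergent peaks -16.7 bp, 42 intervals had a member in all 8 libraries and 2 (AIP5–GSY1 and LDB7–SLA1, the latter named after its values were seen) had one in the 4 integrated libraries only. With equal peak numbers the enrichment against genes was -0.0050 and the width difference between contexts 15.9 bp. Without exclusion zones the enrichment against convergent peaks was 0.00013, and with 1 summit per interval it was 0.063 and 0.025 against genes. Summit clusters gave 2 intervals with a peak in 1 context only. Uncentred values gave 3 tandem intervals called higher in the integrated libraries and 0 lower, among 6 called of all 406 features. Windows of 50 bp gave a GC difference of 8.86 percentage points in place of 8.06, and shares at summits of 2.69 (Reb1), 2.65 (Abf1), 5.82 (Rap1) and 0.38 (TATA box) times those of all windows, in place of 2.18, 2.14, 4.36 and 0.47. Leaving out 1 library moved the enrichment against convergent peaks between 0.11 and 0.15, against genes between 0.037 and 0.055 and the width between contexts between -11.9 and 2.38 bp; with 7 libraries the first 2 reached adjusted p of 0.0313 to 0.0625, and the smallest p they allow is 0.0156. Intervals with a member in all remaining libraries then numbered 104 to 119. The causes of these changes were not tested. Counts of intervals with a member in every library or in 1 context only are given here for tandem intervals alone. They are not set beside all nuclear features in these settings, so no comparison with other features can be drawn from them. Deviations of same-numbered libraries had correlations of -0.08 to 0.10 over 6 pairs of strains, so the numbers do not pair them. With a replicate block limma called 0 tandem intervals in each direction and 0 of all features. Without the rDNA, RRT15 and CUP1-1 intervals, a setting added after seeing the data, no call changed. In intervals of over 500 and up to 1200 bp, likewise added, the enrichment against divergent peaks was -0.048. Exact read totals per library were not used, as the lists do not hold them, and intervals without a listed peak in a library could not be tested.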
